A study of Rattus norvegicus with 9 samples.

Results

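The Krüppel-like factors (KLFs) described here are the 8 genes Klf2, Klf4, Klf5, Klf6, Klf7, Klf9, Klf10 and Klf15, chosen by name and represented by 13 of the 41012 probes of the array, or 8 of the 25785 genes or features tested. Klf2, Klf4 and Klf15 have 1 probe each, and the other 5 genes have 2 each. Rat cortical neurons, dissociated from prenatal pups and used at 11 to 15 days in culture, were compared on 9 single-colour Agilent arrays in 3 groups of 3. Every group had been held for 48 h in tetrodotoxin (TTX), which blocks voltage-gated sodium channels and so silences firing. Cells of the TTX group were taken with the toxin still on, and the groups W15 and W45 were collected 15 min and 45 min after it had been washed out with 3 changes of medium. No group without TTX was analysed here, and the labels mention no mock wash of the TTX group, so return of activity and change of medium cannot be told apart. The labels do not say that replicates are separate cultures, so p-values measure only the spread between these samples.

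KLFs are transcription factors that bind GC-rich and CACCC-type promoter elements through a set of Cys2-His2 zinc fingers at the carboxyl end, while their amino-terminal parts differ and recruit activators or repressors. In neurons of rats and mice the family is known for its hold on axon growth: Klf4 and Klf9 restrain it, and Klf6 and Klf7 favour it. Other members are best known as early targets of outside signals: Klf2 and Klf4 of the MEK5-ERK5-MEF2 kinase pathway, Klf10 of TGF-beta, and Klf9 and Klf15 of glucocorticoid or thyroid hormone.

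The probes are 60-base oligonucleotides, and what they measure depends on where they sit. The 4 probes below lie in the zinc-finger coding part of their genes, where family members resemble each other most. Positions are those of the rn3 build in the array files, and each sequence is written 5′ to 3′. Capitals mark the codons of the zinc-binding cysteines and histidines that fall within the probe.
Klf2, chr16:17942542-17942601, minus strand: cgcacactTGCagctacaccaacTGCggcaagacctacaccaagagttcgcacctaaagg
Klf5 second probe, chr15:83122433-83123577, plus strand: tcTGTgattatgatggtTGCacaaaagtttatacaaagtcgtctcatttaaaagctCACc
Klf7 second probe, chr9:62884484-62884543, minus strand: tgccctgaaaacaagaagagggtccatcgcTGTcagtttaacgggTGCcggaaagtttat
Klf7 brighter probe, chr9:62846415-62846474, minus strand: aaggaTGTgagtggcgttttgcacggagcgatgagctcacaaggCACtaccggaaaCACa
The Klf5 probe spans 1145 bases of genome and so crosses an exon junction. Where it overlaps the Klf2 probe best, without gaps, 25 of 54 bases (46.3%) are identical, so the same finger is spelled differently in the paralogs. The Klf7 probes cover different fingers and lie 38069 bases apart in the genome. The result on Klf4 rests on a single probe, at chr5:73452107-73452166 on the minus strand, which begins as follows (first 30 of 60 bases, no base in capitals).
Klf4: tatgcactgtggtttcagatgtgcaataat

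All 13 probes stood well above background on all 9 arrays, none was saturated and none had a missing array. Values are log2 processed signal minus the 75th percentile of the same array, so 0 is the signal that 75% of probe spots stay under. They rank arrays for 1 probe and are not comparable between probes. A gene with more than 1 probe is represented by its brighter one, and was called when limma's adjusted p was under 0.05. In these bulk samples, fewer cells of a type and less RNA per cell cannot be told apart.

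The cultures carried neuronal messages: all 8 neuron markers, among them Tubb3, Snap25 and Rbfox3, were well above background on all arrays. Markers of astrocytes (5 of 6 on all arrays), oligodendrocyte lineage (6 of 6) and fibroblasts or meninges (6 of 6) were also above background. Of 6 microglial markers, Aif1, Itgam and Cx3cr1 did not pass the background filter. Cd68 was above background on all 9 arrays, Ptprc on 8 and Csf1r on 7. Of 8 endothelial markers, Pecam1, Tek and Flt1 did not pass, and the other 5 (Cdh5, Kdr, Cldn5, Nos3 and Vwf) were above background on all arrays. The summed signal of the neuron markers, in units of the 75th percentile, lay between 97.8 and 123 in TTX, between 107 and 129 at 15 min and between 95.3 and 123 at 45 min, and no marker of any of these lists was called in any comparison. Without adjustment, p was under 0.05 at 45 min over TTX for Nefl, Olig2 (both higher) and Cd68 (lower). The summed signal of the fibroblast and meninges list lay between 12.2 and 15.4 at 45 min and between 11.2 and 14.4 in TTX. Most of it came from Pdgfra, with a mean log2 signal of 3.44 in TTX, where Dcn, the next, was at -0.40. The endothelial sum lay between 0.249 and 0.336 at 45 min and between 0.237 and 0.290 in TTX. The microglial sum lay between 0.13 and 0.28 at 45 min and between 0.26 and 0.31 in TTX. Each sum compares arrays only and is no measure of the share of a cell type. Activity-regulated genes were taken as a check of the response to washout, which cannot tell return of firing from change of medium. Fos rose by 4.87 ± 0.33 (log2, SE, 3 arrays a group, limma adjusted p = 0.00165) at 15 min. Arc, a synaptic plasticity gene, rose by 5.32 ± 0.24 at 45 min (adjusted p = 9.60e-06) and was not called at 15 min (1.69, adjusted p = 0.1755). Egr1 rose by 2.11 at 15 min and 4.20 at 45 min, and Npas4, not above background on any TTX array, by at least 19.5-fold at 15 min and at least 198-fold at 45 min.

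Klf4 was the only member whose change was called, and a member that was not called may still have changed. The Klf4 signal did not differ detectably from TTX 15 min after washout and was 4.81-fold higher at 45 min, and no other KLF passed the test at either time. Klf4, one of the pluripotency factors and a brake on axon growth, had log2 signals of -0.95, -0.83 and -0.64 in TTX, -0.63, -0.76 and -0.69 at 15 min, and 1.41, 1.63 and 1.33 at 45 min. The 45-min arrays were therefore all far above the other 6, which overlapped with each other. The rise at 45 min over TTX was 2.27 ± 0.14 in log2 units (SE, 3 arrays a group), which gives the fold a 95% interval of 3.89-fold to 5.95-fold, and limma's adjusted p was 6.20e-05. Against 15 min, the rise was 2.15 ± 0.14 (adjusted p = 2.35e-04). The difference of 15 min from TTX was 0.12, with an interval of -0.19 to 0.43 (adjusted p = 0.997). Klf4 ranked 22 of 25785 genes by its log2 fold change over TTX at 45 min and 12 by that over 15 min.

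**Figure D1:**
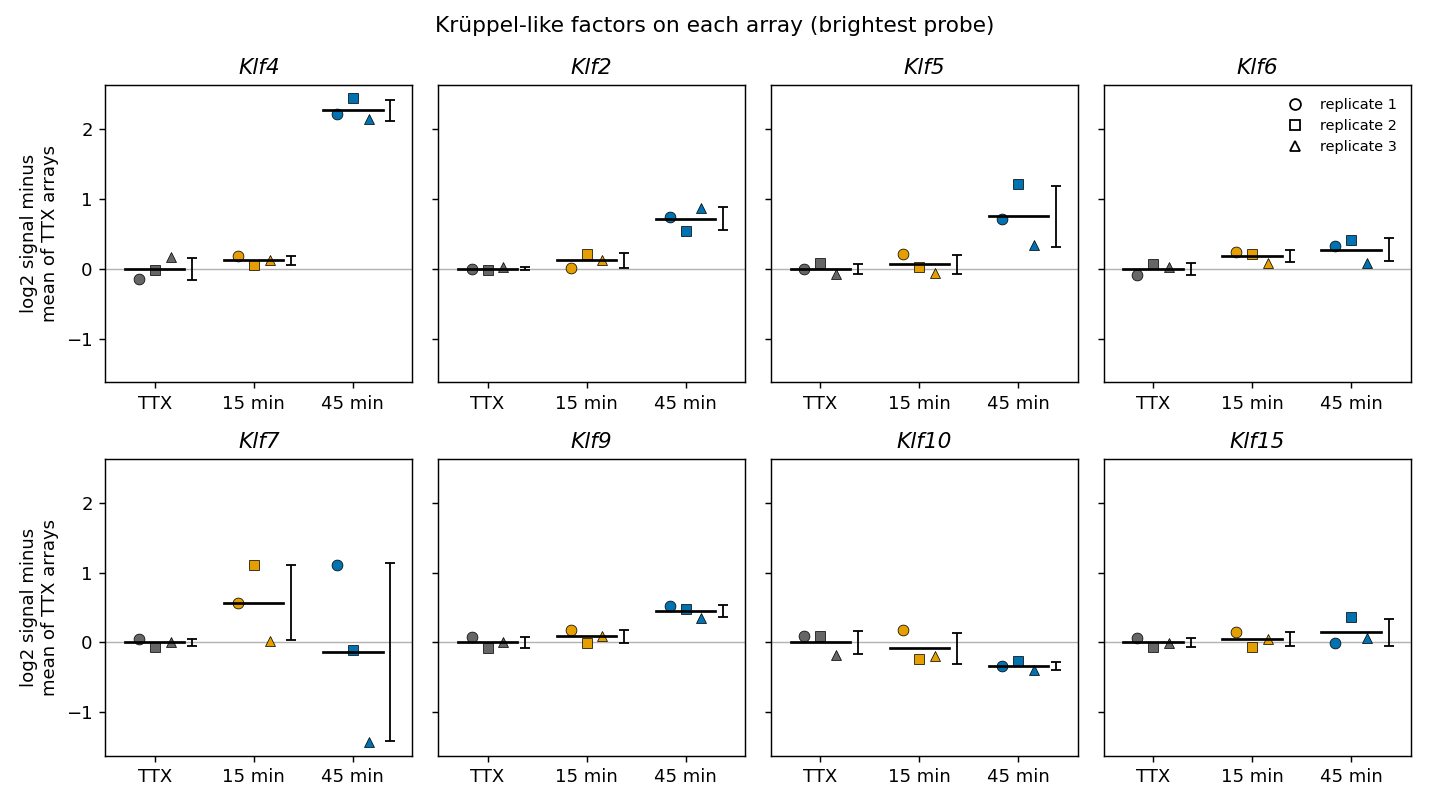
Log2 signal of the 8 KLF genes (brightest probe each) minus the gene's mean over the TTX arrays (y axis), for neurons in TTX and 15 or 45 min after washout (x axis). Points are single arrays with a symbol for each replicate number, horizontal lines are group means, and bars beside them show ± 1 SD (n = 3). The 45-min arrays of Klf4 stand between 2.14 and 2.44 above the TTX mean, whereas those of Klf7 run between -1.43 and 1.11 around it.

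The slides that carry the arrays are unevenly shared between groups. Slide 1 carried 1 array of each group (W45 replicate 1, W15 replicate 3 and TTX replicate 1), slide 3 carried the other 4 arrays of W45 and W15, and slide 2 the other 2 of TTX. Within slide 1, with 1 array per group and so no test, Klf4 was 2.36 higher at 45 min than in TTX and 2.09 higher than at 15 min. With slide as a fixed block, the rise over TTX was 2.39 (limma adjusted p = 0.0202). The rise over 15 min was again 2.15 (limma adjusted p = 0.00315). The block cannot move this last value, since W15 and W45 are spread alike over slides 1 and 3. On the 4 arrays of slide 3 alone, Klf4 was 2.17 higher at 45 than at 15 min, a difference that was not called (adjusted p = 0.175, 2 arrays against 2, where no gene of the table was called). Within slides, the step from 15 to 45 min was thus 2.09 and 2.17, beside 2.15 over all arrays.

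At 15 min none of the 8 members was called higher or lower. Over all genes tested, 0.0233% were called higher at this time and 0.0% lower, and the arrays of 10.1% stood wholly above and of 3.66% wholly below those in TTX. By the probe that represents each gene, only Klf6 had 15-min arrays wholly above TTX, 1 of 8, and none lay wholly below. The second probe of Klf6 overlapped TTX, and that of Klf7 lay wholly above it. The median log2 fold change of the members was 0.10 at 15 min, beside 0.05 for all genes. Without adjustment, p was under 0.05 for 642 higher and 235 lower genes, and no member was among them.

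At 45 min Klf4 was 1 of 8 members called higher than TTX and none was called lower, beside 0.186% of all genes called higher and 0.0233% lower. The arrays of 5 members (Klf2, Klf4, Klf5, Klf6 and Klf9) lay wholly above TTX, where 8.29% of all genes did, and those of Klf10 lay wholly below, where 3.36% did. The median over members was 0.36, beside 0.05 for all genes, and the unadjusted p was under 0.05 for 4 members, all higher (Klf2, Klf4, Klf5 and Klf9), beside 973 higher and 686 lower genes of the 25785 tested. From 15 to 45 min, Klf4 was again the 1 member called higher and none was called lower, beside 0.12% and 0.0116% of all genes. The 45-min arrays of Klf2, Klf4, Klf5 and Klf9 stood above those at 15 min without overlap (3.99% of all genes) and those of Klf10 below (4.13%). The comparisons with TTX share the TTX arrays, and both later comparisons share the W45 arrays, so these counts are not independent of each other. Because the members were chosen with results of these data known, the counts describe the family and are no test of it.

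**Figure D2:**
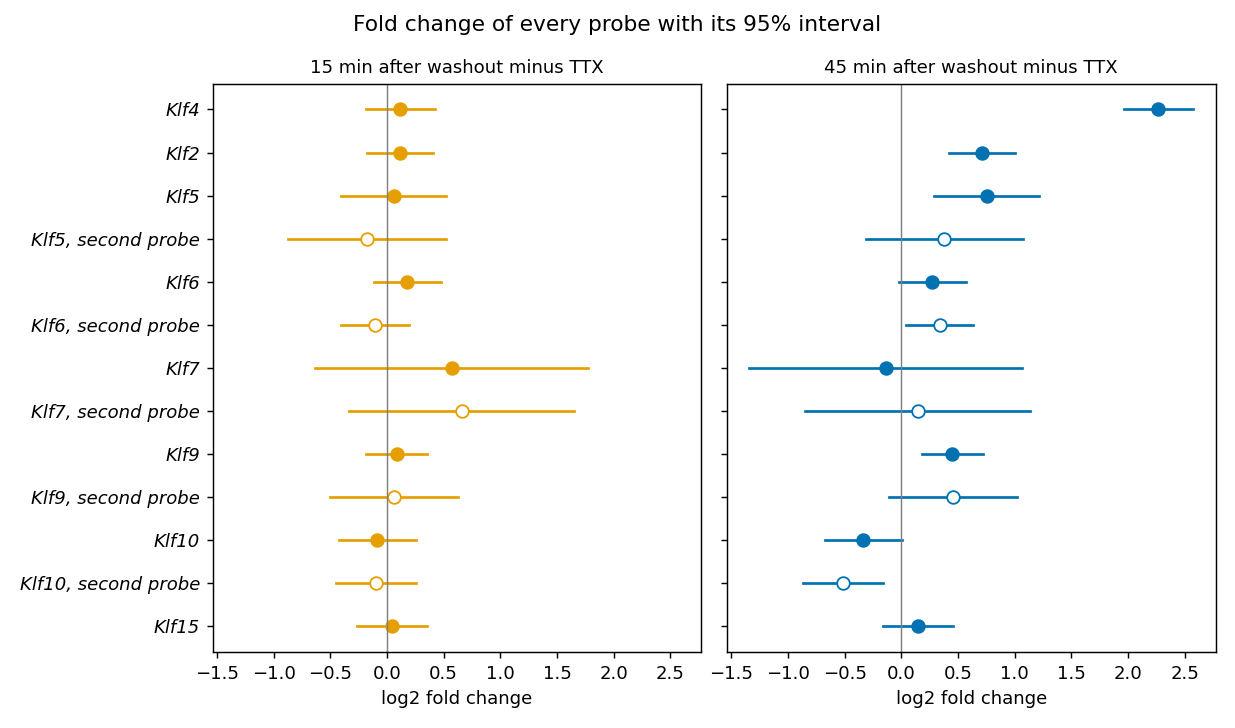
Log2 fold change over TTX (x axis) of each of the 13 KLF probes (rows), at 15 min (left) and 45 min (right) after washout, with 95% intervals from limma. Filled points are the brightest probe of a gene and open points its second probe; of the 45-min intervals only that of Klf4 lies wholly above 1.5.

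Klf9, the other brake on axon growth and a target gene of thyroid hormone and glucocorticoid, gave a small difference that did not pass the test. Its brighter probe read 0.21, 0.05 and 0.14 in TTX, 0.31, 0.13 and 0.22 at 15 min, and 0.65, 0.61 and 0.48 at 45 min. The 45-min arrays lay above the 6 others, and the difference from TTX was 0.45 ± 0.12 (SE), with a 95% interval of 0.18 to 0.72 (limma adjusted p = 0.491). The second probe, 23898 bases away, differed by 0.46 with a wider interval of -0.11 to 1.02, and its groups overlapped. The intervals of Klf9 and Klf4 at 45 min did not overlap.

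Klf6 and Klf7 are the members that favour axon growth, and neither was called. Klf6, an early-response tumour suppressor, read 4.68, 4.85 and 4.80 in TTX, 5.02, 4.99 and 4.86 at 15 min, and 5.10, 5.18 and 4.86 at 45 min. Both later groups lay above TTX, narrowly, since the lowest array at each later time was within 0.02 of the highest TTX array. The difference was 0.18 at 15 min (limma adjusted p = 0.997) and 0.27 at 45 min, with an interval of -0.02 to 0.57 (adjusted p = 0.776). The second Klf6 probe, 2740 bases away, differed by -0.11 at 15 min and 0.34 at 45 min, so the probes disagree in sign at the earlier time.

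Klf7, known for its part in axon outgrowth and sensory neuron development, varied more between replicate arrays after washout than any other member. Its brighter probe read 2.62, 2.51 and 2.58 in TTX, 3.14, 3.68 and 2.59 at 15 min, and 3.68, 2.47 and 1.14 at 45 min. The TTX arrays were nearly equal, 2 of the 15-min arrays stood above them, and the 45-min arrays fell on both sides. The second probe read 2.01, 1.87 and 1.90 in TTX, 2.80, 2.92 and 2.05 at 15 min, and 3.00, 2.24 and 0.98 at 45 min, and so put the arrays within each later group in the same order. The SD of the 45-min arrays was 1.27 on the brighter probe, higher than in 99.5% of all genes, and that of the 15-min arrays was 0.54, higher than in 93.9%. In TTX it was 0.06, and 11.1% of genes had a lower one. Between the highest and lowest 45-min array the Klf7 signal differed 5.82-fold on the brighter probe and 4.06-fold on the second. The mean change of Klf4 over TTX, a different measure, lay between these folds.

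**Figure D3:**
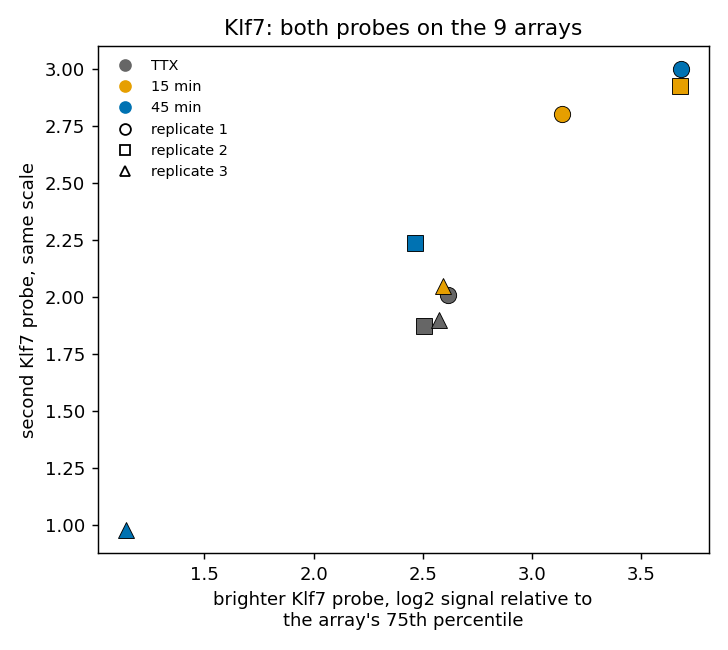
Log2 signal of the brighter Klf7 probe (x axis) and of the second probe (y axis), each relative to the array's 75th percentile, on the 9 arrays. Colours give the group and symbols the replicate number; W45 replicates 1 and 3 lie at opposite ends, at 3.68 and 1.14 on the x axis, while the 3 TTX arrays lie together.

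The mean difference of Klf7 from TTX on the brighter probe was 0.57 at 15 min, with an interval of -0.64 to 1.78, and -0.14 at 45 min, with an interval of -1.35 to 1.07 (limma adjusted p = 0.997 and 0.980). The second probe differed by 0.66 at 15 min and 0.14 at 45 min, so the probes disagree in sign at the later time. On the brighter probe, the sign at 45 min turned when W45 replicate 3 was left out, to 0.51, and the difference was -0.76 without W45 replicate 1. From 15 to 45 min the difference was -0.71, but within slide 1 it was 1.09 and on slide 3 alone -1.61. The lowest Klf7 array within each later group, replicate 3, also had the fewest probes above background of its group: 72.4% at 45 min, against 75.8% and 76.7% in replicates 1 and 2, and 73.3% at 15 min, against 77.9% and 74.4%. The part of this in the spread of Klf7 was not tested.

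Klf2, a factor of endothelial and T cells that shear stress and the MEK5-ERK5-MEF2 pathway turn on, had the lowest adjusted p after Klf4. It read -3.46, -3.47 and -3.43 in TTX, -3.44, -3.24 and -3.33 at 15 min, and -2.71, -2.92 and -2.59 at 45 min. The 45-min arrays lay above the 6 others, by 0.71 ± 0.13 (SE) over TTX with an interval of 0.42 to 1.004, and by 0.60 over 15 min (limma adjusted p = 0.114 and 0.283). The unadjusted p over TTX was 3.21e-04, which did not pass the adjustment over 25785 genes. Among the arrays of TTX the SD of Klf2 was 0.02, the smallest of the 8 members.

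The genes of the pathway upstream of Klf2 gave no call either. Of 10 MEK5-ERK5-MEF2 genes, 8 were measured, and none was called or had an unadjusted p under 0.05 in any comparison, with a median log2 fold change of 0.17 at 15 min and 0.10 at 45 min over TTX. The kinase gene Map3k2 differed most at 45 min, by 0.68 (limma adjusted p = 0.771), and the transcription factor gene Mef2a by -0.17 (adjusted p = 0.950).

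Klf5, a growth-promoting factor of epithelia and vascular smooth muscle, read 0.02, 0.10 and -0.04 in TTX, 0.24, 0.06 and -0.03 at 15 min, and 0.74, 1.24 and 0.37 at 45 min on its brighter probe. The 45-min arrays stood above all others but spread widely, with an SD of 0.44 against 0.07 in TTX. The difference over TTX was 0.75 ± 0.20 (SE), with an interval of 0.29 to 1.21 (limma adjusted p = 0.531). The second probe, the zinc-finger one printed above, differed by 0.38 with an interval of -0.31 to 1.08. At 15 min the probes disagreed in sign, at 0.06 and -0.18.

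Klf10, the TGF-beta-inducible early gene, was the member whose 45-min arrays lay below TTX. Its brighter probe read 3.26, 3.26 and 2.98 in TTX, 3.34, 2.93 and 2.97 at 15 min, and 2.82, 2.89 and 2.78 at 45 min. The difference at 45 min was -0.33 ± 0.15 (SE), with an interval of -0.67 to 0.00, and was not called (limma adjusted p = 0.768). The second probe, 876 bases away, read 0.28, 0.10 and -0.07 in TTX, -0.04, 0.02 and 0.03 at 15 min, and -0.41, -0.16 and -0.66 at 45 min. It differed by -0.51, with an interval of -0.86 to -0.16 (adjusted p = 0.610), so both probes placed the 45-min arrays below the 6 others. Of 13 genes listed for the early response to TGF-beta, 10 were measured and none was called, with a median of 0.02 at 45 min and no unadjusted p under 0.05 at that time over TTX. Tgfb1, a ligand, differed by 0.33 and Smad2, a signal transducer of the receptor, by -0.29 (adjusted p = 0.932 and 0.842).

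Klf15, a factor of amino acid and glucose metabolism that glucocorticoid induces, gave a small difference at 45 min. It read 1.13, 0.9998 and 1.06 in TTX, 1.21, 1.002 and 1.12 at 15 min, and 1.06, 1.43 and 1.13 at 45 min. The groups overlapped at both times, and the 45-min difference was 0.14, with an interval of -0.16 to 0.45 (limma adjusted p = 0.903). All 10 genes listed for glucocorticoid and thyroid hormone response were measured and none was called, with a median of 0.08 at 45 min. The unadjusted p at 45 min over TTX was under 0.05 for Per1 and Tsc22d3 only. Per1, a clock gene, differed by 0.77 (adjusted p = 0.660), and Tsc22d3, which encodes the glucocorticoid-induced leucine zipper, by -0.47 (adjusted p = 0.768).

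Other genes had a pattern close to that of Klf4. By the root mean square difference over the 9 arrays, each gene's log2 values taken from its own TTX mean, the 4 genes nearest to it were Btg2, an antiproliferative gene (0.20), Rasl11a, a small GTPase gene (0.31), Bdnf, the neurotrophin (0.33), and Dusp1, a MAP kinase phosphatase (0.37). Btg2 read 1.49, 1.29 and 1.40 in TTX, 1.84, 1.49 and 1.55 at 15 min, and 3.99, 3.68 and 3.67 at 45 min. Its difference from TTX was 0.23 at 15 min and 2.39 at 45 min. At 45 min Rasl11a rose by 2.47, Bdnf by 1.94 and Dusp1 by 2.69 over TTX, and all 4 were called (limma adjusted p = 7.87e-05 for Btg2, 2.68e-04 for Rasl11a, 0.00190 for Bdnf and 4.81e-05 for Dusp1). At 15 min none of the 4 was called, with differences of -0.15 for Bdnf to 0.55 for Rasl11a. These genes were chosen for their likeness, so their agreement with Klf4 is a description.

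**Figure D4:**
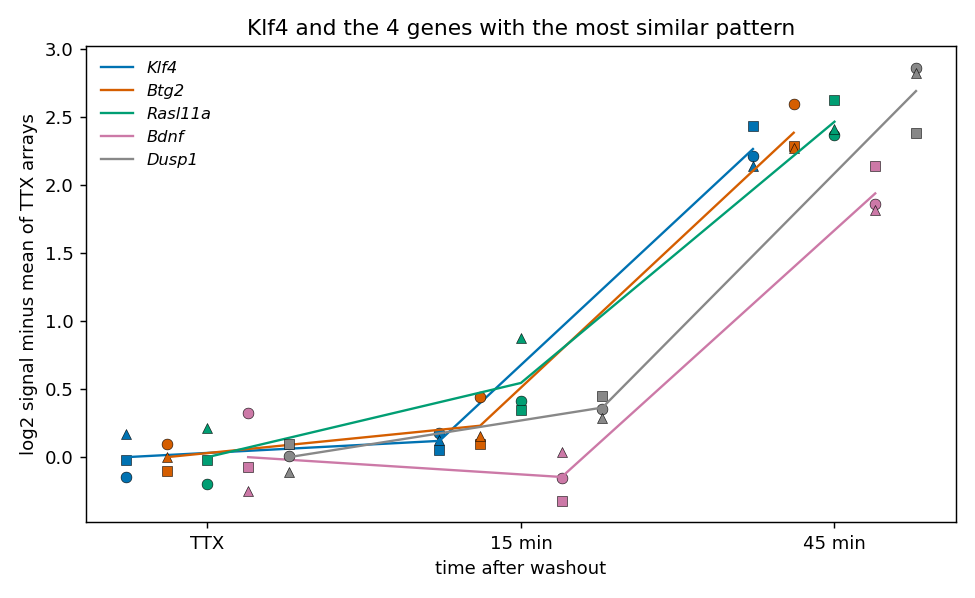
Log2 signal of Klf4 and of the 4 genes nearest to it in pattern, each minus its own mean over the TTX arrays (y axis), in TTX and at 15 and 45 min after washout (x axis, times not to scale). Points are arrays, symbols give the replicate number and lines join group means; the 45-min arrays of all 5 genes lie between 1.82 and 2.87, and the 15-min arrays between -0.32 and 0.88.

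The rest of the zinc-finger family gave no call, and none of its measured genes had an unadjusted p under 0.05 in any comparison. Of 9 further KLF genes, 5 were measured, with a median of 0.10 at 45 min over TTX and a range of -0.14 to 0.21. The probe assigned to Klf11, by its accession and under another name in the array files, differed by 0.21 (limma adjusted p = 0.895), and Klf13 by -0.14 (adjusted p = 0.938). Of 9 SP factor genes, which share the DNA-binding domain, 6 were measured, with a median of 0.06. Sp9 differed by 0.36 and Sp6 by 0.28 (adjusted p = 0.896 and 0.926). Among 13 genes for KLF cofactors and degradation, 12 were measured and none was called at either time or had an unadjusted p under 0.05 at 45 min: Ctbp1, a corepressor, differed by -0.43 and Btrc, of a ubiquitin ligase, by 0.28 at 45 min (adjusted p = 0.771 and 0.838). Of 6 genes described as KLF targets in other tissues, none was called at 15 or 45 min, and 2 had an unadjusted p under 0.05 at 45 min over TTX. Bcat2, of branched-chain amino acid breakdown, differed by -0.68 and Thbd, the endothelial thrombomodulin, by 0.50 at 45 min (adjusted p = 0.418 and 0.618).

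RefSeq promoters of the GRCr8 build, 250 bases before to 50 after the annotated start, were given for 6 of the 8 members (Klf4, Klf5, Klf6, Klf7, Klf9 and Klf15). Both strands were searched. The cyclic AMP response element (TGACGTCA), present in 1.83% of all 33469 promoters, was in none of the 6, and its core (TGACG, part of the full element, 21.2% of promoters) was in those of Klf5, Klf9 and Klf15. A CArG box, the serum response factor element, was found in Klf6 only, 201 bases before the start (1.64% of promoters), and the MEF2 site (3.29%) in none. The CACCC box (CCACCC, 29.4%) was in Klf7, the GC box (GGGCGG, 33.1%) in Klf6 and Klf7, and TATAAA (14.2%) in Klf4, on the reverse strand. The Klf4 window held none of the other motifs. These matches describe the letters of windows that depend on the annotated start, and no value of the arrays bears on binding there.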

How the data were processed

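Per the file headers, the deposited values are spot intensities of Cy3 on Agilent rat arrays (design 014879). Feature Extraction, version 9.5.3.1 in the headers and 9.5 in the submitters' processing notes, gave signals background-subtracted and detrended within the array. The deposited value table holds the same intensities. Per the labels, 500 ng of total RNA was labelled. Every deposited value column was matched to a sample (0 left over).

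Control spots (1639 of 45018) were left out, spots marked as outliers (49 to 111 per array) were set to missing, and spots of 1 probe were averaged. Each array's 75th percentile of the processed signal (1556 to 2521) was divided out before log2. Probes well above background on all 3 arrays of a group were kept (30321), and a gene was its brightest kept probe. Probes were named through RefSeq accessions and symbols (GRCr8, names only); 12307 of the 25785 genes or features have a RefSeq symbol. Of all probes, 72.4 to 77.9% were well above background, and the number of arrays limits the precision. Arrays of a group correlated at 0.984 to 0.996.

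All 9 arrays were fitted with limma 3.58.1 (R 4.3.3), a mean per group, with two-sided moderated tests and Benjamini-Hochberg adjustment over all 25785. The fit was tested on simulated data with 200 genes changed at 45 min over TTX. Of genes given a log2 change of 1, 55% were called, and of those given 2, 85%, with 12 false calls. A change of 1 or less, and sometimes one of 2, can therefore go uncalled. With 3 arrays a group, exact permutation cannot reach a p under 0.1, and was not used. Fold changes are relative to the array scaling: the median of all genes was 0.05 at both times over TTX, and moved to -0.15 and -0.21 without scaling and to 0.21 and 0.12 with normexp background correction.

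Replicate numbers come from the labels. Deviations from the group mean correlated between arrays of the same number at 0.23 to 0.39 (W15 with TTX) and 0.12 to 0.37 (W45 with TTX), and so they were taken to pair these samples. Between W45 and W15 the deviations correlated at 0.06 to 0.18. The main fit has no term for this pairing, so its intervals and p-values leave it out. The replicate block is the alternative that includes it. Alternatives tried were background correction, scaling, the filter, the probe rule, the slide, the replicate block, the variance model and leaving out each array.

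The members and all lists were chosen with earlier results of these data known. By the rule for names, all member probes are named, with the 4 genes most like a called member, and of each list every called gene or else the 2 with the largest change at 45 min. Figures were drawn with matplotlib 3.10.9.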

Additional observations from a re-analysis of the deposited data

How the results depend on the processing

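The rise of Klf4 at 45 min over TTX was called under all 20 alternatives that allow a test, with log2 fold changes of 2.003 to 2.39 and adjusted p-values of 7.33e-06 to 0.0202, and no other member was called under any alternative in any comparison. With the replicate block, the rise over TTX was 2.27 (limma adjusted p = 0.00138) and that over 15 min 2.15 (adjusted p = 0.00422); the pairing changed no call of a member. Against 15 min, Klf4 was called in 20 of 21 alternatives; on slide 3 alone, with 2 arrays against 2, 0 members were called and Klf4 was 2.17 (adjusted p = 0.175). Taking every kept probe by itself left the number of members called at 1 in both comparisons of 45 min. Several settings could not move the fold of Klf4 over TTX and bear only on its test. Those on the filter and the probe rule keep its 1 probe. The replicate block, the variance model, fitting only the groups compared and leaving out a W15 array keep its group means.

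Changes of sign touched only differences that were not called. At 15 min over TTX, no scaling between arrays gave -0.0853 for Klf2, -0.0847 for Klf4, -0.144 for Klf5, -0.0261 for Klf6, -0.119 for Klf9 and -0.158 for Klf15, where the median of all genes was -0.15, against 0.05 with scaling. The mean of all kept probes gave -0.0584 for Klf5, the slide as a fixed block -0.0125 for Klf5 and -0.0867 for Klf15, and slide 1 only -0.0511 for Klf5, -0.0221 for Klf7 and -0.0094 for Klf15. At 45 min over TTX, Klf7 was 0.0026 with the mean of its probes, 0.17 with the slide block and 1.06 on slide 1, and Klf15 was -0.12 without scaling and -0.0662 on slide 1. From 15 to 45 min, slide 1 gave 1.09 for Klf7 and -0.0569 for Klf15. Leaving out 1 array at a time gave -0.0152 to 0.12 for Klf5 and -0.0026 to 0.10 for Klf15 at 15 min, -0.76 to 0.51 for Klf7 at 45 min over TTX, and -0.0135 to 0.17 for Klf15 from 15 to 45 min. The cause of these changes of sign was not tested. Slide 1 holds fewer arrays than the main fit, and the median of all genes also moved without scaling. With slide as a fixed block, folds over TTX depend on TTX replicate 1, since no other TTX array shares a slide with later ones.

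Counts over all genes moved with the setting. At 45 min over TTX, 48 were higher and 6 lower, against 70 and 89 without W45 replicate 1, 23 and 0 with normexp, and 19 and 3 with slide as a fixed block.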

Other observations

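The spread of Klf7 between replicate arrays was shared by other genes. By the same root mean square measure, and chosen after the values of Klf7 were seen, the nearest genes with a symbol were Rbsn (0.25), Usp7 (0.29), Zbtb38 (0.29) and Sorcs3 (0.30). Usp7, a deubiquitinase gene, read -0.03, -0.37 and -0.20 in TTX, 0.65, 0.34 and -0.37 at 15 min, and 0.65, -0.31 and -1.18 at 45 min. Sorcs3, a sorting receptor gene of neurons, read -0.77, -0.74 and -0.83 in TTX, -0.23, -0.27 and -0.58 at 15 min, and -0.08, -0.72 and -1.75 at 45 min. On each of these genes W45 replicate 1 was the highest and W45 replicate 3 the lowest of its group, as on both Klf7 probes. The genes were chosen for their likeness to Klf7 over these same arrays, so this order is a description.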
